A study of Mus musculus with 12 samples.

Results

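The mammalian circadian clock is a feedback loop of transcription factors, and 10 of its genes were followed here through open chromatin in 3 kinds of mouse forebrain cells. The genes were Per1, Per2, Per3, Ciart, Nr1d1, Nr1d2, Bhlhe41, Dbp, Tef and Arntl. Every ATAC-seq peak that the deposited tables assign to one of them by nearest start site was taken, which gave 306 of the 281974 peaks. Of these, 84 of 91770 lay in the microglia table, 102 of 107627 in the NeuN+ table and 120 of 82577 in the Olig2+ table. All 10 genes had peaks in each table, and 86 of the 306 peaks lay within 1000 bp of a transcription start site. No peak was dropped by a filter on low values.

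The animals were C57BL/6 mice aged 4 months, either wild type (WT) or SgshKO, which lack the lysosomal enzyme N-sulfoglucosamine sulfohydrolase that takes part in heparan sulfate breakdown. Microglia were taken as unfixed living cells positive for CD11b and CX3CR1 and low for CD45, while neuronal (NeuN+, with OLIG2 and PU.1 absent) and oligodendrocyte-lineage (OLIG2+, with NeuN and PU.1 absent) nuclei were sorted after light formaldehyde fixation. Each of the 6 groups had 2 libraries, so n = 2 throughout, and nothing in the labels says whether the libraries of a group came from separate animals or pools, so a p-value measures only the spread between these libraries. The labels name no harvest hour, light schedule, sex or run for any library, so a difference in time of day between the genotypes was not tested and cannot be told apart from genotype. An ATAC-seq peak at Sgsh does not check the loss of its product, so the labels were not checked that way.

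In the clock loop, the heterodimer of ARNTL (also called BMAL1) and CLOCK binds E-box sequences and activates the Per, Nr1d, Ciart, Bhlhe41, Dbp and Tef genes. PER proteins, with their CRY partners, and CIART then repress that heterodimer, while the nuclear receptors NR1D1 and NR1D2 (REV-ERB alpha and beta) repress Arntl through ROR elements (ROREs). DBP and TEF are proline- and acid-rich bZIP activators that carry the rhythm to output genes through D-boxes, and BHLHE41 (DEC2) is an E-box repressor. Through the day the E-box driven genes and Arntl therefore peak at different hours, with glucocorticoids acting as an additional inducer of Per1.

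The promoter sequences of Ciart, Per1, Tef, Per3 and Arntl, a choice among the members, show which of these elements lie beside the measured peaks. Each is the 250 bases before a RefSeq start site (assembly GRCm38.p6, the assembly also called mm10), read 5′ to 3′ on the gene's strand, with the E-box CACGTG and the D-box TTATGNAA in capitals.
Ciart, chr3:95882229-95882478, minus strand: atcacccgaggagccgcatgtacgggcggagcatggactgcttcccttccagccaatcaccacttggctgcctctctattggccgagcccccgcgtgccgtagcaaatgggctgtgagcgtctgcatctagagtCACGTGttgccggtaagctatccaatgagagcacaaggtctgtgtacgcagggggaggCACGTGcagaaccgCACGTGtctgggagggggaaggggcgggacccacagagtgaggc
Per1, chr11:69098699-69098948, plus strand: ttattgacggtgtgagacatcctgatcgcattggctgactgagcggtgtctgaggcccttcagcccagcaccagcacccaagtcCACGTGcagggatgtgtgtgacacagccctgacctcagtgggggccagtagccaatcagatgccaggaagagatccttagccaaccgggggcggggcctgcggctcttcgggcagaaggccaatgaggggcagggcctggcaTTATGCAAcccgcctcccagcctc
Tef, chr15:81811164-81811413, plus strand: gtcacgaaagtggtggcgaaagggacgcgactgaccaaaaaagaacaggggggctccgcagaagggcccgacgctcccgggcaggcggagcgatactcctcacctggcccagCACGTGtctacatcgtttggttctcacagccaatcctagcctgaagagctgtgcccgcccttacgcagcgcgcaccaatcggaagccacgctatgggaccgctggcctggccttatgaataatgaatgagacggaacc
Per3, chr4:151044666-151044915, minus strand: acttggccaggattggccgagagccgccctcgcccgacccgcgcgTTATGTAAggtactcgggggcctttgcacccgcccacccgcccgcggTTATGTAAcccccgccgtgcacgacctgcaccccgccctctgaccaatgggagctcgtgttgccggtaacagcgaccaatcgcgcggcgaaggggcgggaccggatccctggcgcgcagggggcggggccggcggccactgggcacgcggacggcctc
Arntl, chr7:113207215-113207464, plus strand: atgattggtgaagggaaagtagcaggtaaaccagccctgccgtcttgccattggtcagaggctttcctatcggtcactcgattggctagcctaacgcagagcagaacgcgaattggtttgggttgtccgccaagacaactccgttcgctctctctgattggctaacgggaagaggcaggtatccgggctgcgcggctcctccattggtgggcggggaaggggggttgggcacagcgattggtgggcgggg
The Ciart promoter holds 3 E-boxes, which begin 44, 58 and 116 bases before the start and lie inside the Ciart start-site peak of every table. The Per1 promoter holds an E-box 166 bases and a D-box 24 bases before the start. The Tef promoter shown, that of its downstream start, holds an E-box 138 bases before that start, again inside a peak of every table. The upstream Tef start also has an E-box, 127 bases before it and outside the Tef peaks of every table. Per3 holds 2 D-boxes and no E-box. In the Arntl window the RORE (AAN followed directly by TAGGTCA or TGGGTCA) was found 27 bases after a second annotated start, within aaggcagaAAGTAGGTCAgggacgga at chr7:113207530-113207555, and outside the Arntl start-site peaks.

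Matches on both strands were counted in windows of 250 bases before to 50 after the start, for 12 windows of 9 members and 32851 windows in all. The E-box CACGTG stood in 5 member windows (Ciart, Per1, Bhlhe41 and both Tef windows) and in 7.15% of all windows. Its extension TCACGTGA, which contains CACGTG, stood in no member window and in 0.974% of all. The D-box stood in 2 member windows (Per1 and Per3) and in 3.38% of all, and the RORE in 1 (Arntl) and in 0.435%. CACGTT, a weaker E-box form, stood in 1 member window (Nr1d1) and in 4.68% of all. The cyclic AMP element TGACGTCA (1.79% of all) and the glucocorticoid element, GNACA and TGTNC separated by 3 bases (0.475% of all), were found in no member window. These matches describe the letters in these windows only. The window of Dbp and that of Nr1d2, whose sequences are not shown, held none of the listed elements.

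Levels are the number of reads in a peak scaled so that every library totals 10000000 reads, called tags here. Library totals ran from 10771659 to 19555924 reads, and start-site peaks of the members held 6 to 1119 reads in a library. Peaks were compared on log2(tags + 1) with limma, and a peak counted as called where its p, adjusted by Benjamini-Hochberg over the whole table, was under 0.05. The share of reads inside peaks was 55.8% and 48.7% in WT against 67.4% and 53.7% in SgshKO microglia. It was 26.7% and 25.9% against 21.5% and 21.2% in NeuN+ nuclei, and 30.9% to 31.8% in all 4 Olig2+ libraries. All 8 markers of a sort's own cell type had a start-site peak in its table. In NeuN+ nuclei the start-site tags of 8 neuronal markers summed to 983 and 893 in WT against 514 and 530 in SgshKO. The oligodendrocyte-marker sum there fell too (179 and 155 against 85.85 and 88.25), and the median log2 change of all start-site peaks was -0.53. In Olig2+ nuclei the start-site tags of 8 oligodendrocyte markers summed to 3066 and 3034 against 2611 and 2638. The microglial sum in microglia (2460 and 2118 against 2729 and 2106) overlapped. Over all peaks of these microglial markers, however, 24 of 192 fell and 1 rose, against 2.33% and 5.05% of all peaks (median log2 change -0.59). The part of cell makeup in the results was not tested.

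In Olig2+ nuclei the start-site peaks of 5 genes (Per1, Per2, Ciart, Nr1d2 and Dbp) fell in SgshKO, and that of Arntl rose. Of the 120 member peaks, 24 fell and 6 rose, where 11.7% of all 82577 peaks of that table fell and 8.17% rose. Within 1000 bp of a start, 9 of 28 member peaks fell and 2 rose, against 7.56% and 12.7% of all such peaks. The median log2 change was -0.23 over those 28 peaks and 0.05 over all 20120 peaks of that class. Leaving out a WT library cut the calls of the 120 peaks to 20 or 21, and leaving out an SgshKO library left 30 or 32. With the start-site median set to 0, 27 fell and 3 rose, where 17116 of all 82577 peaks were called, 5698 of them higher.

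Per1 codes for a PER repressor that is also quickly induced by light and hormones. Its start-site peak held 164 and 145 tags in the WT and 92.8 and 87.7 in the SgshKO Olig2+ libraries. Both SgshKO values lay below both WT values, and the peak fell by 0.77 on the log2 scale (SE 0.12, adjusted p = 2.66e-05). A stronger upstream peak, centred -1818 bp from the start, held 354 and 343 tags in WT and 227 and 230 in SgshKO (log2 change -0.60, SE 0.08, adjusted p = 1.74e-06). The groups were apart there too. Farther upstream at -3963 bp, where levels were the highest of the locus (524 and 504 against 445 and 410), the fall was 0.27 (SE 0.06, adjusted p = 0.00379). In the last exons the direction was the opposite, with a low peak at 6794 bp rising from 9.34 and 8.18 to 13.5 and 19.9 tags (log2 change 0.84, adjusted p = 0.0479).

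Per2, the second PER repressor, had 209 and 206 tags at its start in WT and 143 and 139 in SgshKO, a fall of 0.55 (SE 0.10, adjusted p = 0.000163). Its intronic peaks at 688, 3287 and 22587 bp fell as well, by 1.40, 1.08 and 1.07, so that 4 of its 6 peaks fell. Per3, whose protein has a smaller part in the loop, behaved differently at its start. It held 203 and 207 tags in WT and 217 and 200 in SgshKO, and the groups overlapped (log2 change 0.02, SE 0.09, adjusted p = 0.879, of a sign that turned under quantile normalization and start-site scaling). Only a weak intronic Per3 peak at 1132 bp fell, from 12.5 and 14.3 to 7.38 and 4.65 tags.

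Ciart, also named Chrono, encodes a repressor of the ARNTL and CLOCK pair. The peak over its 3 E-boxes held 229 and 198 tags in WT and 132 and 140 in SgshKO. It fell by 0.65 (SE 0.10, adjusted p = 3.73e-05), and the only other Ciart peak, at -1012 bp, fell from 52.9 and 57.3 to 25.2 and 29.3 tags (log2 change -0.99, SE 0.19, adjusted p = 0.000386). Nr1d1 was called lower in its first intron and was not called at its start, where both SgshKO values also lay below both WT values. The intron peak at 1359 bp held 315 and 318 tags in WT and 218 and 224 in SgshKO (log2 change -0.52, SE 0.08, adjusted p = 3.00e-05), while the peak at the start held 97.0 and 104 against 83.6 and 91.1 (log2 change -0.20, adjusted p = 0.281). Of the 29 Nr1d1 peaks, 1 fell and 2 low upstream peaks rose, and the gene's 3′ end overlaps Thra, so downstream peaks may belong to either.

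Nr1d2, the REV-ERB beta gene, moved both ways within its first kilobase. The start-site peak fell from 550 and 572 to 464 and 469 tags (log2 change -0.27, SE 0.06, adjusted p = 0.00215). The intron peak at 609 bp rose from 185 and 187 to 256 and 261 (log2 change 0.48, SE 0.09, adjusted p = 0.000255), and a distal intron peak at 22457 bp fell from 25.9 and 32.7 to 14.1 and 12.0. Neighbouring elements of 1 gene thus had opposite signs with groups apart at each. Bhlhe41 had 1 of 10 peaks called, and it rose. The Bhlhe41 start-site peak, which spans an E-box, held 140 and 136 tags in WT and 135 and 171 in SgshKO, overlapping, and the peak at -1347 bp rose from 142 and 142 to 191 and 193 (log2 change 0.43, SE 0.10, adjusted p = 0.00255).

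Peaks of both output regulators fell, 6 of 14 for Dbp and 4 of 22 for Tef. Dbp, the D-box activator with one of the steepest rhythms in many tissues, had 368 and 390 tags in WT and 282 and 266 in SgshKO at the peak -324 bp from its start (log2 change -0.47, SE 0.07, adjusted p = 4.66e-05). The Dbp peak at -839 bp fell from 106 and 95.6 to 48.6 and 45.2 (log2 change -1.09, SE 0.15, adjusted p = 4.12e-06). Tef fell at its downstream start, whose promoter is shown above, from 713 and 676 to 510 and 538 tags (log2 change -0.40, SE 0.06, adjusted p = 6.72e-06). Its other start, farther upstream, held 340 and 331 against 293 and 294 (log2 change -0.19, adjusted p = 0.0654). An intergenic peak 20235 bp downstream of Tef fell from 211 and 170 to 104 and 104 (log2 change -0.86, SE 0.11, adjusted p = 2.48e-06).

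Arntl, the activator itself, rose. Its start-site peak held 139 and 129 tags in the WT and 187 and 195 in the SgshKO Olig2+ libraries, both SgshKO values lying above both WT values. The log2 change was 0.51 (SE 0.10, adjusted p = 0.000698). The next Arntl peak, at 344 bp, held 33.2 and 28.6 against 41.2 and 39.2 tags (log2 change 0.37, adjusted p = 0.178). Of the 26 peaks named by rule and called in Olig2+ nuclei, 20 stayed called without either WT library and 24 or 23 without an SgshKO library, and 24 with the median of all start-site peaks set to 0.

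**Figure D1:**
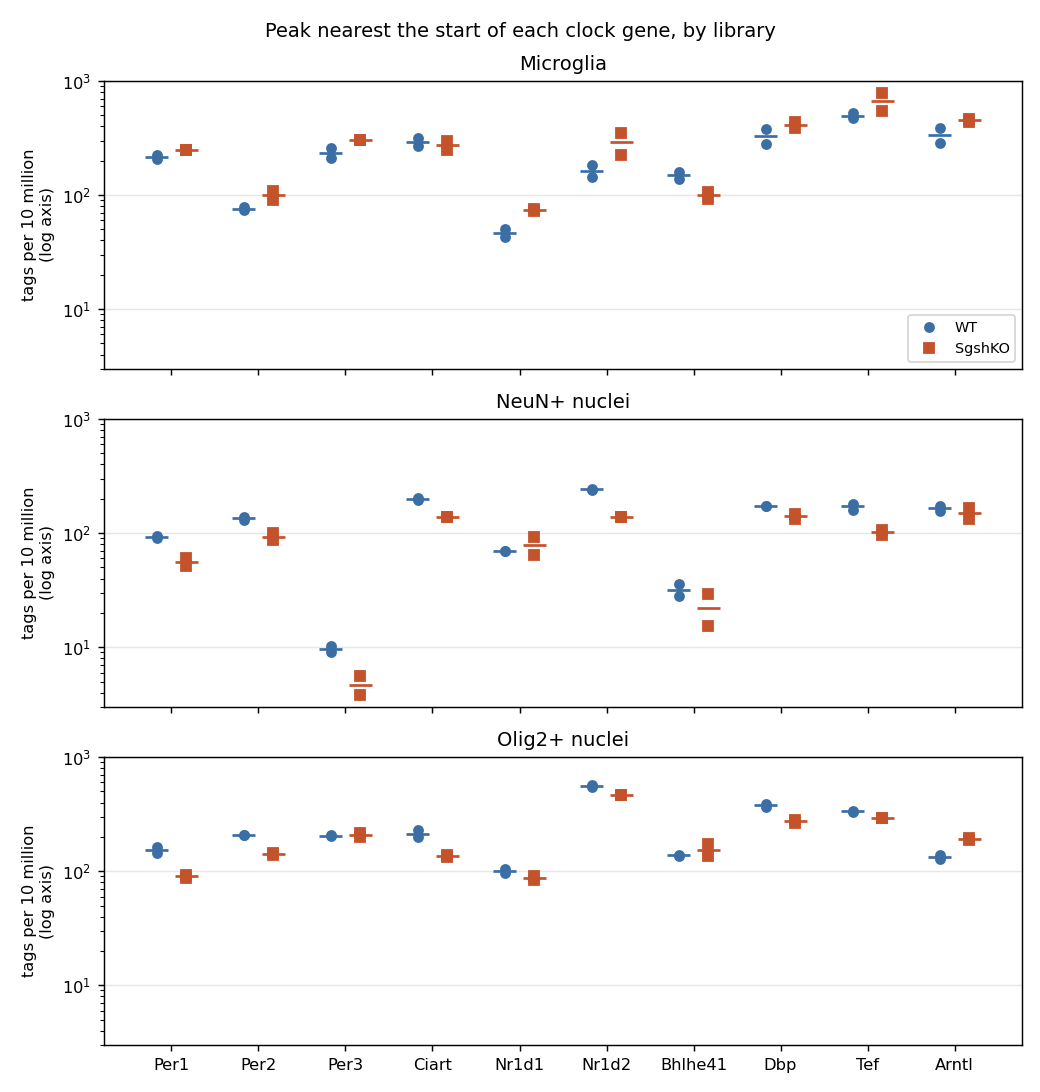
Tags per 10000000 reads (log axis) at the peak nearest the start of each clock gene, one point per library, circles for WT and squares for SgshKO, with a bar at the mean of the 2 libraries. In Olig2+ nuclei Per1, Per2, Ciart, Nr1d2 and Dbp lie lower and Arntl higher in SgshKO; in NeuN+ nuclei 9 of 10 means are lower before any rescaling, and the signs of Per2, Ciart, Dbp and Arntl there turn when start-site peaks are centred on 0.

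NeuN+ nuclei showed lower values at nearly all members, as did start sites in general. Of the 102 member peaks 35 fell and 3 rose, against 19.6% and 10.2% of all 107627 peaks. Within 1000 bp of a start, 12 of 27 fell, or 44.4%, against 44.9% of all 23397 start-site peaks (1.74% of which rose), and the medians were -0.51 over the 27 and -0.53 over all. The count near starts was therefore at the background of the table. With the start-site median set to 0, 9 of the 102 peaks fell and 19 rose, with in-peak scaling 15 fell and 11 rose, with median-of-ratios scaling 21 and 8, with quantile normalization 12 and 8, and by edgeR 22 and 11. Without either SgshKO library no peak of the table was called (15 or 16 of the 27 named calls stayed without a WT library).

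At the start of the REV-ERB beta gene Nr1d2 the NeuN+ groups lay well apart. The peak held 245 and 239 tags in WT and 140 and 138 in SgshKO (log2 change -0.80, SE 0.09, adjusted p = 9.69e-06). It was called lower with start-site centring too (log2 change -0.26). Per1 fell at its start (94.0 and 89.8 against 60.0 and 51.4, log2 change -0.72, SE 0.14, adjusted p = 0.00140) and at -1734 bp (111 and 101 against 46.1 and 55.9, log2 change -1.05, SE 0.15, adjusted p = 5.91e-05), of which only the upstream peak was called after that centring (-0.51). The Nr1d1 intron peak at 1392 bp fell from 129 and 111 to 63.5 and 60.3 (log2 change -0.94, SE 0.13, adjusted p = 7.38e-05; -0.40 after centring, still called). The Nr1d1 start held 69.1 and 69.5 against 92.8 and 64.8, with overlapping groups. Tef fell at both starts, by 0.86 (SE 0.10, adjusted p = 1.31e-05) at the downstream start and by 0.75 (SE 0.11, adjusted p = 0.000117) at the upstream one.

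Start-site peaks of Per2, Ciart and Dbp in NeuN+ nuclei fell on the deposited scale, edgeR also called those of Per2 and Ciart lower, and the sign of all 3 turned with start-site centring and with quantile normalization. Per2 held 138 and 132 against 87.3 and 99.7 tags (log2 change -0.53, SE 0.12, adjusted p = 0.00322), which became 0.01 with start-site centring. Ciart held 202 and 196 against 140 and 138 (log2 change -0.52, SE 0.10, adjusted p = 0.000781), which became 0.02. Dbp held 173 and 175 against 134 and 147 (log2 change -0.31, SE 0.10, adjusted p = 0.0284), which became 0.23, while its exonic peak at 1754 bp (87.2 and 82.5 against 35.6 and 43.2, log2 change -1.09, SE 0.16, adjusted p = 8.72e-05) was called lower on both scales. Arntl overlapped between genotypes, with 172 and 158 tags in WT and 168 and 134 in SgshKO (log2 change -0.14, SE 0.11, adjusted p = 0.366), and its sign turned after centring, where it was called higher (0.40). Bhlhe41 fell at -905 and -1358 bp (log2 changes -1.03 and -1.17) and not by the test at its start (28.3 and 35.6 against 29.3 and 15.2). The weak Per3 peak at 480 bp held 9.06 and 10.2 against 5.58 and 3.81 tags (adjusted p = 0.0539).

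In microglia 6 peaks of Nr1d1, Nr1d2, Tef and Dbp rose in SgshKO and 4 exonic Per1 peaks fell, few of the peaks of these genes and shares near the background. Of 84 member peaks 6 rose and 4 fell, against 5.05% and 2.33% of all 91770 peaks. Within 1000 bp, 3 of 31 rose, against 8.59% of all 23806 such peaks (1.20% of which fell), so the count near starts was close to the background. None of the 10 nearest start-site peaks was called by limma or DESeq2, 1 was called by edgeR, and 1 had an unadjusted p under 0.05. In-peak scaling gave 6 higher and 11 lower of the 84 and quantile normalization 5 and 9. Over all 91770 peaks in-peak scaling called 14522, of which 5103 rose, and quantile normalization 10484, of which 6488 rose. No member peak was called by limma without WT replicate 1 or without WT replicate 2, and 19 and 17 were called without SgshKO replicates 1 and 2.

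Among the called microglial peaks the first-intron peak of Nr1d1 at 1457 bp had the highest level. It held 452 and 359 tags in WT and 786 and 836 in SgshKO, with the groups well apart (log2 change 1.01, SE 0.24, adjusted p = 0.00702). Nr1d2 rose at 571 bp, from 183 and 153 to 301 and 456 (log2 change 1.14, SE 0.27, adjusted p = 0.00673), and at 22479 bp, from 17.3 and 16.9 to 54.5 and 52.0 (log2 change 1.58, SE 0.39, adjusted p = 0.00869). Its start held 182 and 143 against 227 and 352 (log2 change 0.80, adjusted p = 0.0735). The downstream Tef start rose from 316 and 286 to 511 and 588 (log2 change 0.86, SE 0.25, adjusted p = 0.0270), with a companion at -444 bp. A Dbp intron peak at 2571 bp rose from 99.4 and 83.9 to 165 and 225 (log2 change 1.07, SE 0.29, adjusted p = 0.0189). Quantile normalization ended the calls at Nr1d1 (log2 change 0.41), at both Tef peaks (0.32 and 0.49) and at the Per1 peak at 4577 bp (-1.21).

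Per1 in microglia was not called at its promoters and fell inside the gene. The first promoter, at -180 bp, held 547 and 569 tags in WT and 513 and 572 in SgshKO (log2 change -0.04), and the second, the nearest to a start, held 207 and 224 against 248 and 248 (log2 change 0.21, a sign that turned under quantile normalization). The exonic peak at 6703 bp held 53.6 and 53.4 tags in WT and 8.66 and 19.5 in SgshKO (log2 change -1.95, SE 0.42, adjusted p = 0.00261). Those at 4577, 6400 and 7486 bp also fell, by 1.62, 1.44 and 1.09, so that all 4 microglial calls toward lower values were in Per1 exons. Ciart (315 and 270 against 248 and 296) and Per2 (73.5 and 78.8 against 90.0 and 110) were not called at their starts. Arntl held 389 and 289 against 441 and 467 (log2 change 0.44, adjusted p = 0.321), and Bhlhe41 161 and 139 against 92.6 and 106 (log2 change -0.59, adjusted p = 0.234).

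**Figure D2:**
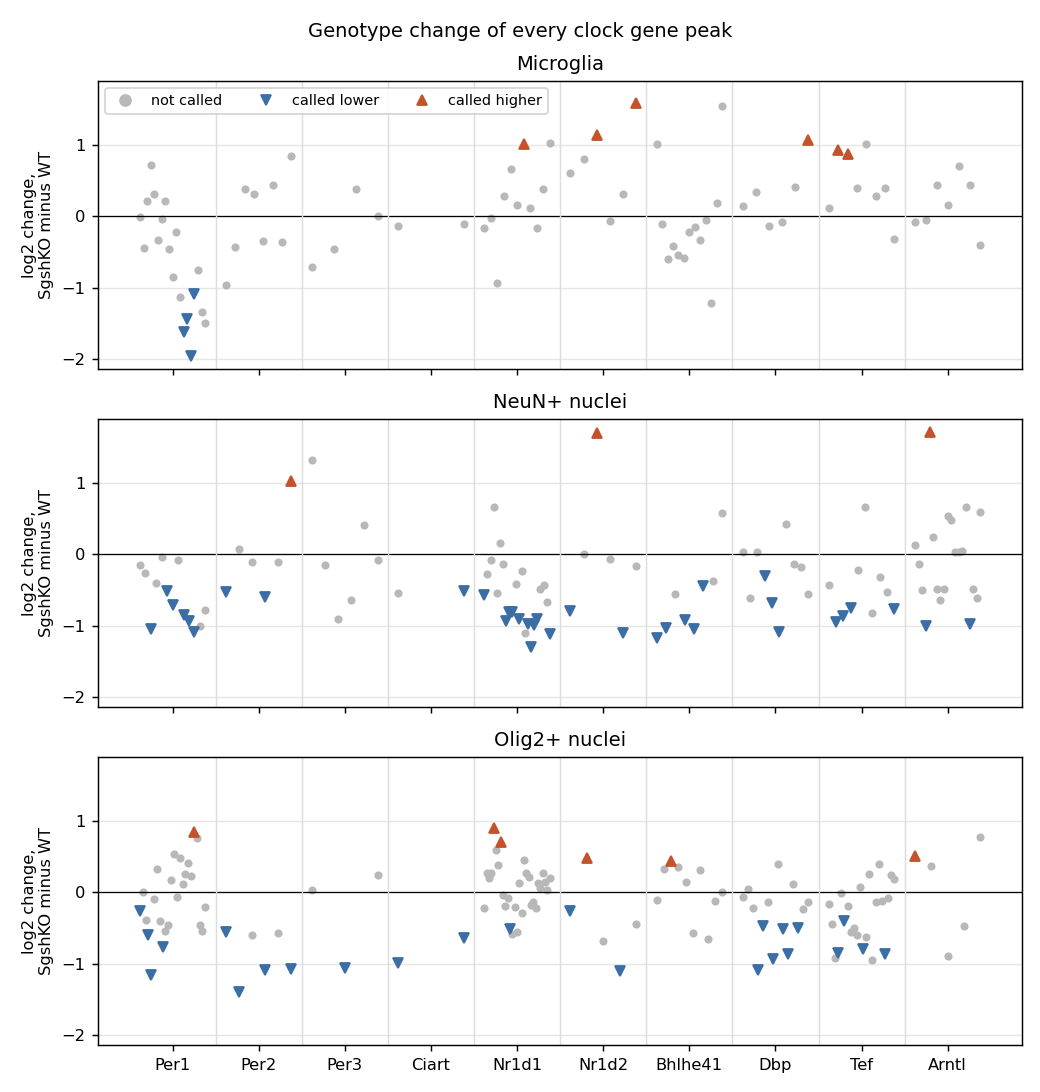
Log2 change (SgshKO minus WT) of all 306 clock gene peaks, ordered within each gene from upstream to downstream; triangles pointing down or up are peaks called lower or higher, grey points were not called. The 4 microglial calls below 0 are all in Per1, and Olig2+ calls are mostly below 0 with Arntl above. In NeuN+ nuclei 35 of 38 calls lie below 0 on the deposited scale (9 of 28 with start-site centring). With that centring 30126 of the 33271 calls over all NeuN+ peaks lie above 0.

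Since the E-box driven genes and Arntl peak at different hours in a working clock, their difference was taken within each library. The difference also removes any factor common to all start sites of that library. It is a description, with no test. The mean log2 start-site level of the 9 E-box driven members minus that of Arntl was 0.69 and 0.78 in the WT and -0.08 and -0.11 in the SgshKO Olig2+ libraries, a difference of -0.83. In NeuN+ nuclei it was -0.93 and -0.79 against -1.32 and -1.21 (difference -0.41, or -0.20 with all peaks within 1000 bp summed). In microglia it was -1.01 and -0.77 against -1.06 and -1.04 (difference -0.16). The 9 members counted equally, among them the weak NeuN+ Per3 peak at 480 bp (mean 9.6 tags in WT and 4.7 in SgshKO). Per1 entered by its second promoter in microglia and by its first in both nuclei sorts. On these terms all 3 sorts had the lower values in SgshKO, with the 2 groups adjacent in microglia. On the deposited scale the change of the E-box term and of the Arntl term was 0.27 and 0.44 in microglia. The same changes were -0.55 and -0.14 for NeuN+ and -0.32 and 0.51 for Olig2+ libraries. The NeuN+ Arntl term was above 0 with in-peak (0.16), quantile (0.44) and start-site scaling (0.40), and the microglial one below 0 with quantile normalization (-0.11).

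**Figure D3:**
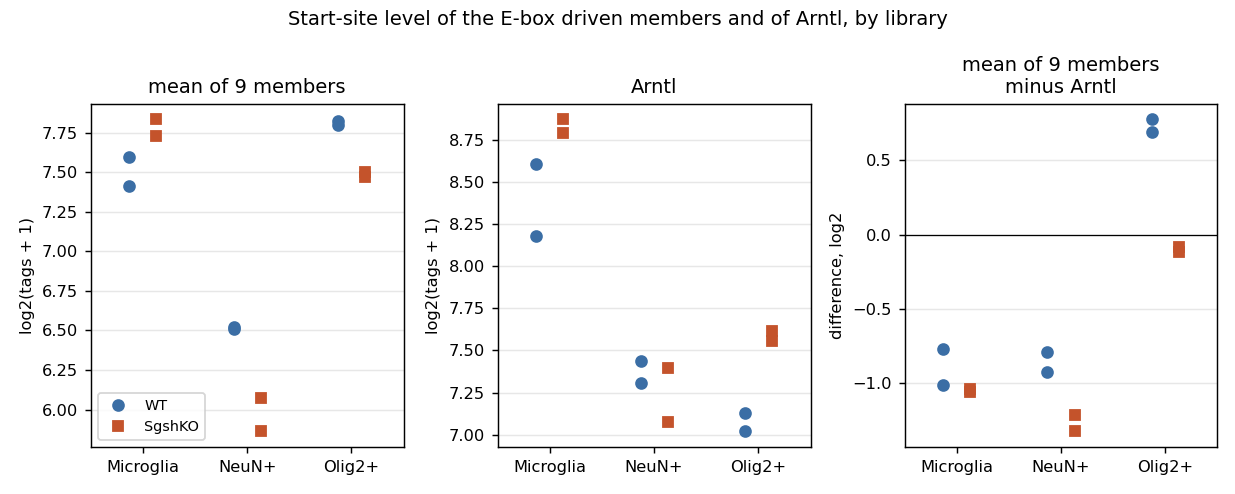
Mean log2(tags + 1) of the start-site peaks of 9 E-box driven members (left), of Arntl (middle), and their difference (right) in each library; circles are WT and squares SgshKO. In Olig2+ nuclei the difference goes from 0.69 and 0.78 in WT to -0.08 and -0.11 in SgshKO, with the first term lower and the second higher.

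Whether the genotype change differed between sorts was tested on 28 member peaks matched one to one by 50% reciprocal overlap, in a model of all 12 libraries. The change was lower in NeuN+ nuclei than in microglia at 13 of the 28, where 40.8% of all 16761 matched peaks were lower and 1.68% higher. With quantile normalization within each sort 5 of the 28 were called lower, and with in-peak scaling 6. Between Olig2+ nuclei and microglia, the change was lower at 13 and higher at 2 of the 28, against 17.6% and 3.99% of all matched peaks (6 and 4 with in-peak scaling). Between Olig2+ and NeuN+ nuclei, it was higher at 5 and lower at 1, against 30.8% and 0.913% (2 and 2 with in-peak scaling, 3 and 2 with quantile normalization).

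The Nr1d1 first-intron peak showed the contrast most plainly. Its log2 change was 1.01 in microglia, -0.94 in NeuN+ and -0.52 in Olig2+ nuclei. The difference from microglia was -1.94 (SE 0.19, adjusted p = 2.41e-08) in NeuN+ and -1.53 (SE 0.19, adjusted p = 3.92e-06) in Olig2+ nuclei. The downstream start of Tef had changes of 0.86, -0.86 and -0.40, with differences from microglia of -1.73 (adjusted p = 5.35e-08) and -1.27 (adjusted p = 1.70e-05). The distal Nr1d2 intron peak rose in microglia (1.58) and fell in Olig2+ nuclei (-1.11), a difference of -2.69 (SE 0.41, adjusted p = 3.92e-05). The exonic Per1 peak at 6703 bp went the other way, from -1.95 in microglia to 0.84 in Olig2+ nuclei, a difference of 2.79 (SE 0.58, adjusted p = 0.00119). At the first Per1 promoter the differences from microglia were -0.67 in NeuN+ and -0.72 in Olig2+ nuclei, the former turning to 0.41 with quantile normalization. Of the 6 peaks called between Olig2+ and NeuN+ nuclei, the Dbp peak at -842 bp was the one with the lower change in Olig2+ nuclei (difference -1.12, SE 0.28, adjusted p = 0.00429).

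**Figure D4:**
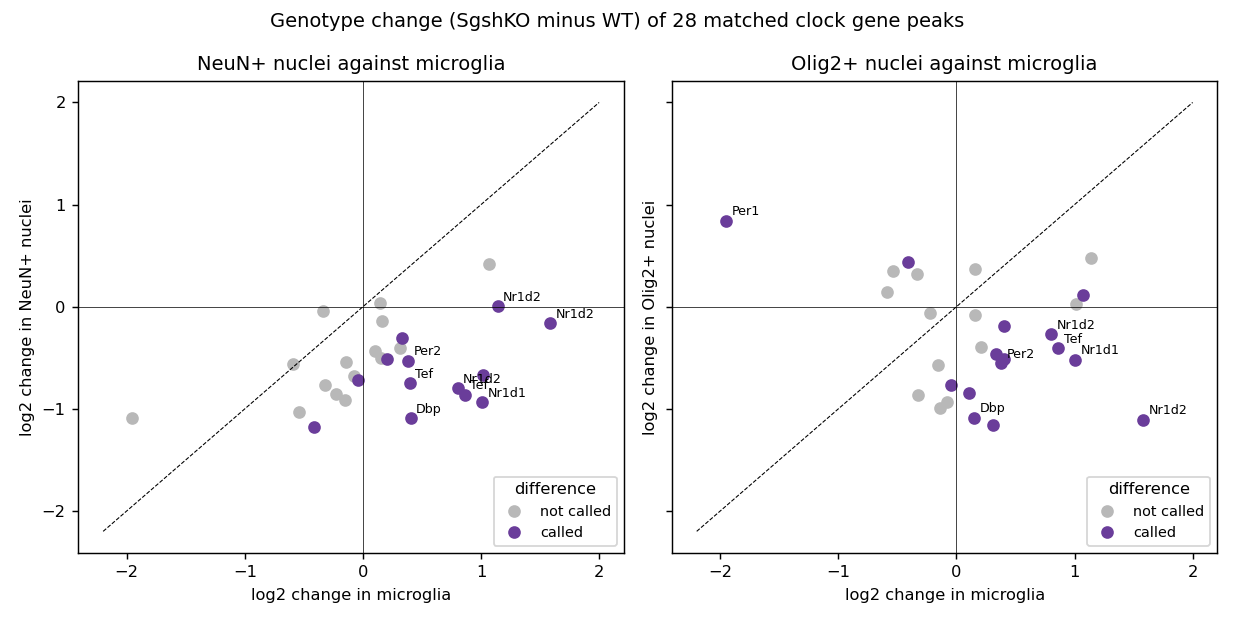
Log2 change (SgshKO minus WT) of the 28 matched clock gene peaks in microglia (horizontal) against NeuN+ (left) or Olig2+ nuclei (right); purple points are those whose change differed between the sorts, and gene names mark differences at an adjusted p under 0.005. The 13 purple points of the NeuN+ panel lie below the diagonal of equal change, where 40.8% of all 16761 matched peaks were called lower. Quantile normalization turns the sign of the difference at 4 of the 13. Per1 at 6703 bp stands above the diagonal in the Olig2+ panel, where 17.6% of all matched peaks were called lower and 3.99% higher.

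In WT libraries the same promoters held different tag levels in the 3 sorts when scaled to total reads. Microglia were unfixed cells and the other sorts fixed nuclei, so sort and preparation cannot be told apart. The share of WT reads in peaks also differed, at 55.8% and 48.7% in microglia, 26.7% and 25.9% in NeuN+ and 31.8% in both Olig2+ libraries. The first Per1 promoter had 558 tags in microglia, 91.9 in NeuN+ and 155 in Olig2+ nuclei (means of 2). The log2 differences from microglia were -2.59 and -1.85, and that between the nuclei sorts 0.74. Per2 ran the other way, with 76.1, 135 and 208 tags, as did the Nr1d2 start with 163, 242 and 561, and for both genes each pair of sorts differed. The Bhlhe41 start was at 149.8 tags in microglia, 138 in Olig2+ and 32.0 in NeuN+ nuclei, and the first and second of these did not pass the test (log2 difference -0.12, adjusted p = 0.651). The distal Tef element had 313, 29.1 and 190 tags. Of the 28 matched peaks, 12 were lower and 3 higher in NeuN+ nuclei than in microglia (46.5% and 19.3% of all matched peaks), 9 lower and 10 higher in Olig2+ nuclei than in microglia (42.7% and 24.5%), and 20 higher and 2 lower in Olig2+ than in NeuN+ nuclei (30.4% and 19.1%). With scaling to tags in peaks, 12 of the 28 were higher and 9 lower in NeuN+ nuclei than in microglia, and 17 higher and 3 lower in Olig2+ nuclei than in microglia.

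The other 22 clock genes included the partners, kinases and ubiquitin ligases of the loop. In Olig2+ nuclei 11 of their 119 peaks rose and 13 fell, shares close to the background given above (17 and 11 by edgeR, 11 and 19 with start-site centring). Over all Olig2+ peaks edgeR called 17860 (9566 higher) and the fit with start-site centring 17116 (5698 higher). Among single peaks, the start of Nfil3, a D-box repressor, rose (112 and 121 against 165 and 218 tags, log2 change 0.70, SE 0.12, adjusted p = 8.16e-05) and another of its 12 peaks fell. Clock, which codes for the partner of ARNTL, rose at -493 bp (30.6 and 39.4 against 54.1 and 67.8, log2 change 0.79, SE 0.18, adjusted p = 0.00306). Bhlhe40, the DEC1 repressor, had 2 of 4 peaks higher, and Cry1 had 1 of 5 lower. Usp2, a deubiquitinase with E-box driven rhythm, had 4 of 28 peaks lower, led by one at -5774 bp (87.7 and 94.6 against 33.8 and 36.6, log2 change -1.35, SE 0.16, adjusted p = 4.11e-07). These genes were singled out after their values were seen.

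In NeuN+ nuclei 46 of 187 such peaks fell and 21 rose, or 24.6% and 11.2% against 19.6% and 10.2% of all peaks. The Cry2 start fell from 452 and 402 to 181 and 219 tags (log2 change -1.10, SE 0.09). Over all its peaks Cry2 had 3 of 22 lower and 2 higher, while Cry1 had 1 of 10 lower and 5 higher. With start-site centring the count over the list became 7 lower and 57 higher, and with in-peak scaling 24 lower and 35 higher. Higher calls led over all 107627 peaks as well, with 30126 of 33271 calls after centring and 18962 of 28496 with in-peak scaling. In microglia 13 of 167 rose and 5 fell (13 and 17 with in-peak scaling), or 7.78% and 2.99% against 5.05% and 2.33% of all peaks. Over all microglial peaks in-peak scaling called 14522, of which 5103 rose. The Bhlhe40 start rose from 87.3 and 114 to 302 and 388 tags (log2 change 1.77, SE 0.28, adjusted p = 5.68e-05), Cry2 from 291 and 306 to 645 and 742 (log2 change 1.21, SE 0.25, adjusted p = 0.00145) and Nampt, a NAD salvage enzyme, from 99.4 and 102 to 364 and 518 (log2 change 2.10, SE 0.28, adjusted p = 3.23e-06). Hlf, a PAR bZIP relative of Tef and Dbp, had 3 of 16 peaks lower, all intronic. Without WT replicate 1 or 2, 4 and 2 of these microglial peaks were called.

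Lists of glucocorticoid-responsive and of immediate-early genes stand beside these values, since Per1 is itself also induced by light and hormones. In Olig2+ nuclei, 115 of 274 peaks (42.0%) of 12 glucocorticoid-responsive genes fell and 3 rose, with a median log2 change of -0.64. Zbtb16 (51 of 91 peaks lower), Sgk1 (20 of 32) and Klf9 (18 of 38) held most of them. The calls numbered 46 and 59 without WT replicates 2 and 1. The 10 immediate-early genes had 14 of 124 peaks higher and 9 lower there (11.3% and 7.26%, against 8.17% and 11.7% of all peaks). In NeuN+ nuclei 29 of 128 glucocorticoid-list peaks (22.7%) and 60 of 187 immediate-early peaks (32.1%) fell, against 19.6% of all peaks. Higher calls numbered 6 and 5 there (4.69% and 2.67%, against 10.2% of all peaks). With start-site centring 6 and 12 fell and 33 and 17 rose, where 30126 of the 33271 calls over all 107627 peaks were higher. In microglia 8 of 149 glucocorticoid-list peaks rose and 6 fell, shares of 5.37% and 4.03% against 5.05% and 2.33% of all, which became 10 and 24 with in-peak scaling and 15 and 11 by edgeR. Of 212 immediate-early peaks 6 rose and 9 fell there (2.83% and 4.25%), which became 10 and 31 with in-peak scaling and 33 and 14 by edgeR. Over all 91770 microglial peaks in-peak scaling called 14522 (5103 higher) and edgeR 14202 (9382 higher). The part of hormone state in the clock gene values was not tested.

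**Figure D5:**
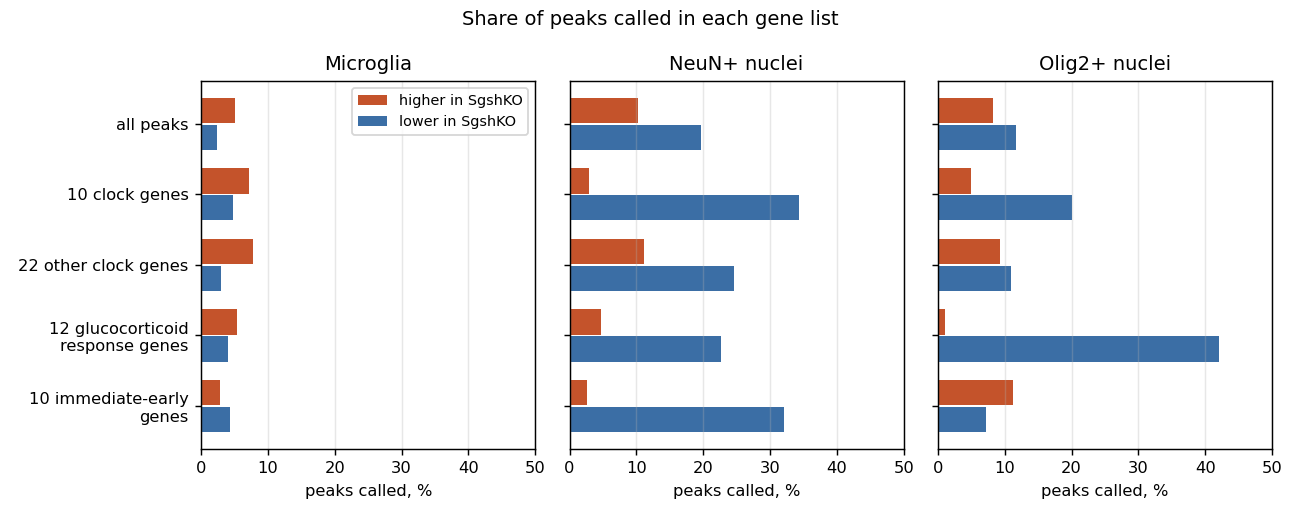
Percent of peaks called higher or lower in SgshKO for all peaks, the 10 clock genes and 3 other gene lists in each sort. In Olig2+ nuclei the glucocorticoid list (42.0% lower) and the clock genes (24 of 120 lower) exceed all peaks (11.7%). In NeuN+ nuclei lower calls lead in each list on the deposited scale, as they do over all peaks (19.6% lower, 10.2% higher). With start-site centring higher calls lead in each list, as they do over all peaks (30126 of 33271 calls).

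The mean start-site profile of 6 members with a matched start-site peak (Per1, Per2, Dbp, Nr1d2, Tef and Bhlhe41), centred within each sort, was set against 10510 other matched start-site peaks over the 12 libraries. The most alike were those of Ogfod2 (Pearson r 0.980), Ankmy2 (0.977) and Qrich1 (0.976). The 12 points of such a profile share their libraries, depth and share of reads in peaks, so the value is a description and has no test.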

How the data were processed

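ATAC-seq, which reads open chromatin from where a transposase cuts, was deposited as 1 annotated peak table per sort with 4 libraries each. The deposited values are a coverage signal, the tags in each peak scaled by the authors to a library total of 10000000, per the file headers, and the Peak Score is a score of the authors' peak calling. Bowtie2, HOMER and the build mm10 are named in the submitters' processing notes; their versions and settings are not given in these sources. All 12 value columns were matched to a labelled sample, and reads were recovered as whole numbers (within 0.01) for 100% of values.

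Each table was fitted whole in R 4.3.3 with limma 3.58.1 (trend, two-sided) on log2(tags + 1), with no covariate; a fold change on this scale understates changes of low peaks. Differences between sorts used 16761 peaks matched by 50% reciprocal overlap. The recovered reads were also tested with edgeR 4.0.16, with 14202 calls in the microglia, 29461 in the NeuN+ and 17860 in the Olig2+ table, and with DESeq2 1.42.0. Alternatives were other pseudocounts, scalings, filters and overlaps, a replicate block and each library left out; start-site median scaling, overlap of the shorter peak and the list recounts were added after the data were seen.

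Named peaks were the one nearest each start within 1000 bp, up to 3 other called peaks per gene and table by smallest p, and those called in a difference between sorts; other peaks and genes named were chosen after their values were seen. The members and lists were chosen with earlier results of these data known. Every script that fits all peaks was tested on simulated data.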

Additional observations from a re-analysis of the deposited data

Results flagged for a closer look

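The genotype change of 34 matched clock gene comparisons differed between sorts by the limma test of the difference itself (adjusted p under 0.05), and each was singled out for that reason. Distances are those of the microglia table, and values are differences of log2 changes. The 3 contrasts share libraries. No group had enough libraries to look for an outlying one.

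For NeuN+ nuclei minus microglia the differences were below 0 at 13 of the 28 member peaks, against 40.8% of all 16761 matched peaks. The member differences were -1.94 (1457 bp) and -1.68 (12602 bp) for Nr1d1, and -1.60 (20 bp), -1.13 (571 bp) and -1.74 (22479 bp) for Nr1d2. Tef had -1.73 (-72 bp) and -1.15 (16 bp), and Dbp -0.64 (-274 bp) and -1.50 (1724 bp). Per1 had -0.67 (-180 bp) and -0.72 (-161 bp), Per2 -0.91 (24 bp) and Bhlhe41 -0.76 (-1305 bp).

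For Olig2+ nuclei minus microglia 13 of the 28 differences were below 0 and 2 above, against 17.6% and 3.99% of all matched peaks. Those above were Per1 at 6703 bp (2.79) and Bhlhe41 at -1305 bp (0.85). Dbp had -1.23 (-842 bp), -0.80 (-274 bp), -0.91 (1724 bp) and -0.96 (2571 bp). Nr1d1 had -1.53 (1457 bp), and Nr1d2 -1.07 (20 bp) and -2.69 (22479 bp). Per1 had -1.47 (-1249 bp) and -0.72 (-180 bp), Per2 -0.93 (24 bp), and Tef -0.95 (-1146 bp), -1.27 (-72 bp) and -0.59 (16 bp).

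For Olig2+ minus NeuN+ nuclei 5 of the 28 were above 0 and 1 below, against 30.8% and 0.913% of all matched peaks. The member peaks were Arntl at 330 bp (0.88), Bhlhe41 at -1305 bp (1.61) and -772 bp (1.38), Per1 at 6703 bp (1.93), Tef at 16 bp (0.55) and Dbp at -842 bp (-1.12).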

How the results depend on the processing

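The clock gene calls numbered 10 in microglia, 38 in NeuN+ and 30 in Olig2+ nuclei. In microglia they became 17 with in-peak scaling and 18 by edgeR, and ranged from 0 to 19 with a library left out. In NeuN+ nuclei they became 20 with quantile normalization and 7 by DESeq2, with 0 to 18 when a library was left out, and in Olig2+ nuclei 16 by DESeq2 (which gave 69 of the 120 peaks an adjusted p), with 20 to 32. The causes were not tested.

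With a replicate block, the microglial calls were 18 for the clock genes, 28 for the other clock genes, 29 for the glucocorticoid and 58 for the immediate-early list, and no other count of calls moved by over 1.5 times. The correlation over peaks of same-numbered deviations was 0.042 in microglia, 0.0036 in NeuN+ and 0.00069 in Olig2+ nuclei. It cannot settle pairing, since it does not see a shift common to all peaks. In microglia replicate 1 had the higher share of reads in peaks in both genotypes (55.8% against 48.7% in WT, 67.4% against 53.7% in SgshKO). The block raised the microglial calls over all peaks from 6765 to 14489.

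The lists moved likewise. In microglia in-peak scaling gave 30, 34 and 41 calls for other clock, glucocorticoid and immediate-early genes, and edgeR 29, 26 and 47, against 18, 14 and 15. With a library left out they ranged from 2 to 38, 1 to 38 and 1 to 63. In NeuN+ nuclei these ranges were 0 to 30, 0 to 14 and 0 to 30, and the immediate-early calls were 37 with in-peak and 29 with start-site scaling against 65. In Olig2+ nuclei the ranges were 9 to 31, 46 to 118 and 9 to 23.

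Differences between sorts were called at 6 and 5 peaks (NeuN+ minus microglia, in-peak and quantile) against 13. An 80% overlap left 5 peaks, of which 2, 3 and 1 were called (NeuN+ minus microglia, Olig2+ minus microglia, Olig2+ minus NeuN+). With a library left out the calls ranged from 10 to 15, 9 to 16 and 3 to 11. The E-box mean minus Arntl with summed peaks was -0.20 in NeuN+ and -0.78 in Olig2+ nuclei.

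Signs turned with quantile normalization in microglia for Tef at 16 bp (-0.22), Arntl (-0.11), Dbp at -274 bp (-0.19), Per3 (-0.055) and Per1 at -161 bp (-0.18), and for Ciart without WT replicate 1 (0.0055) or SgshKO replicate 1 (range over libraries left out -0.23 to 0.020). In NeuN+ nuclei they turned with quantile normalization or start-site scaling for Per2 (0.034 and 0.0059), Ciart (0.048 and 0.018) and Dbp at -235 bp (0.25 and 0.23), and with start-site scaling for Per1 at -123 bp (0.023). Arntl turned to 0.16 (in-peak), 0.0796 (median-of-ratios), 0.44 (quantile), 0.0797 (edgeR), 0.085 (DESeq2), 0.40 (start-site) and 0.024 without SgshKO replicate 2 (range -0.30 to 0.024), and Nr1d1 at -2 bp to -0.096 without SgshKO replicate 1 (range -0.096 to 0.42). In Olig2+ nuclei Per3 turned to -0.0071 (quantile), -0.023 (start-site) and -0.035 without SgshKO replicate 1 (range -0.035 to 0.082), and Bhlhe41 at -99 bp to -0.024 without SgshKO replicate 2 (range -0.024 to 0.32). Differences between NeuN+ nuclei and microglia turned with quantile normalization for Dbp at -274 bp (0.44), Per1 at -180 bp (0.41) and -161 bp (0.16) and Tef at 16 bp (0.034), the last also between Olig2+ and NeuN+ nuclei (-0.047).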
